A study of Mus musculus with 6 samples.

Results

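Vascular smooth muscle cells (VSMCs) are the contractile mural cells that wrap arteries and arterioles and, in a looser form, venules. They shorten when calcium and calmodulin activate myosin light chain kinase, which phosphorylates the regulatory light chain of smooth muscle myosin, and they relax through cGMP, myosin phosphatase and the return of calcium to the sarcoplasmic reticulum. In the brain they set the calibre of pial and penetrating arteries and so the flow that reaches the capillaries, where pericytes take their place along the same vascular tree.

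The VSMCs described here were chosen on measured counts of unique molecular identifiers (UMIs). A barcode was a member when it held 250 to 6000 genes and under 25% mitochondrial UMIs, at least 1 UMI for 4 or more of 8 smooth muscle genes (*Acta2*, *Tagln*, *Myh11*, *Tpm2*, *Cnn1*, *Pln*, *Lmod1* and *Mustn1*), and a UMI for at most 1 of 4 endothelial genes (*Cldn5*, *Flt1*, *Pecam1* and *Cdh5*). The rule found 303 VSMCs among 27530 barcodes that passed the limits on genes and mitochondrial UMIs, of 33273 barcodes deposited, a share of 1.10%. The values of these 12 genes are therefore given as a description of the choice and not as a result.

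The data came from 2 preparations of freshly dissociated brain tissue from female wild-type C57Bl/6J mice. Prep 1 was the cerebral cortex of 3 mice aged 3 weeks and prep 3 was the hippocampus of 3 mice aged 5 weeks. In each, the mice were anaesthetised and perfused, most white matter was removed, and the tissue of each mouse was digested with dispase II and papain and cleared of myelin on its own, without any sorting for cell type. The cells of the 3 mice were then pooled, and 3 technical replicates of the pool were sequenced by the 10x Genomics Chromium method. Each preparation is 1 biological sample, region, age and preparation cannot be told apart, and the spread given below as SD is that between technical replicates, so no p-value was computed.

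The 6 libraries held 39662203 to 50024850 UMIs each. VSMCs numbered 62, 62 and 64 in the cortex libraries and 38, 42 and 35 in the hippocampus libraries, that is 188 and 115 cells with 2034310 and 1358162 UMIs in sum. A member held 9883 UMIs in the cortex and 12032 in the hippocampus at the median, with a range of 509 to 33338 over all members. The median share of mitochondrial UMIs was 10.4% and 10.6%. No barcode of a cortex VSMC and 3 of hippocampus VSMCs also occurred in another library of the same preparation, against 71 and 749 of all barcodes kept. By their scores from Scrublet, a doublet caller, 9 cortex and 1 hippocampus member were marked (4.79% and 0.870%, against 3.55% and 3.79% of all barcodes kept), and these stayed in. The number marked in a library was set in advance, at a rate of 0.8% per 1000 barcodes kept. The shares of all barcodes kept follow from that setting and are not measured doublet rates.

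VSMCs made up 1.43%, 1.35% and 1.46% of the barcodes kept in the cortex libraries and 0.791%, 0.870% and 0.765% in the hippocampus libraries. The means were 1.41% ± 0.0555 and 0.808% ± 0.0544 (SD, n = 3 technical replicates), and the exact (Clopper-Pearson) 95% intervals of the pooled shares, 1.22 to 1.63% and 0.669 to 0.971%, cover counting error only. The libraries of the preparations did not overlap. Against pericytes (at least 4 of *Kcnj8*, *Vtn*, *Abcc9*, *Higd1b*, *Atp13a5* and *Ndufa4l2* and at most 1 of *Myh11*, *Cnn1*, *Tagln* and *Acta2*), of which 371 and 590 were found, there were 52.1, 44.9 and 56.1 VSMCs per 100 pericytes in the cortex libraries and 21.3, 19.8 and 17.5 in the hippocampus libraries. With pericytes held to at most 1 endothelial gene, as the VSMCs were (141 and 373 cells), the values were 144, 103 and 168 in the cortex and 33.9, 31.1 and 27.8 in the hippocampus libraries, so the size of the gap depends on the definition of pericytes. These stricter pericytes were shallower, with 3899 UMIs in the cortex and 4678 in the hippocampus at the median. All pericytes held 10182 and 5796 UMIs, and VSMCs 9883 and 12032. The endothelial limit shaped the counts of VSMCs too, since 49 cortex and 57 hippocampus barcodes with 4 or more smooth muscle genes had 2 or more endothelial genes and were left outside.

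**Figure D1:**
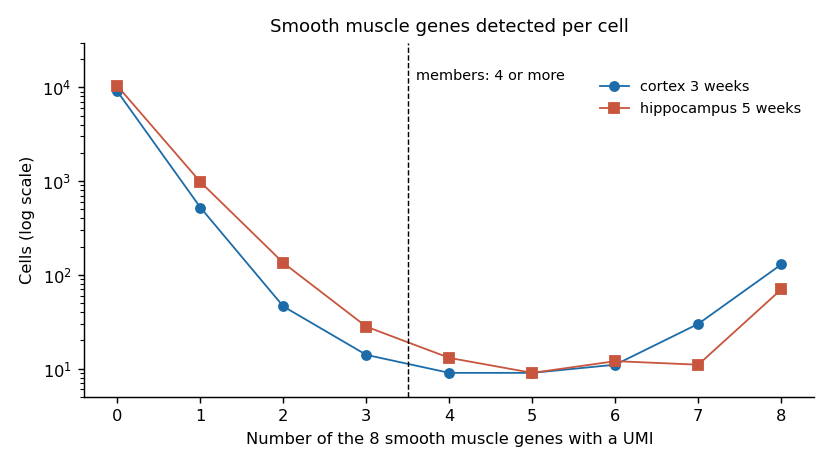
Number of barcodes (y, log scale) by how many of the 8 smooth muscle genes had a UMI (x), for barcodes with at most 1 endothelial gene, in each preparation. The dashed line is the limit for members. Over both preparations the counts dip to 18 at 5 genes and return to 199 at all 8.

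The limit of 4 genes lay in a trough between barcodes without smooth muscle genes and barcodes with nearly all of them. Of the barcodes kept with at most 1 endothelial gene, 19393 had none of the 8 genes, 42 had 3, 22 had 4, 18 had 5, 23 had 6, 41 had 7 and 199 had all 8. Thus 240 of the 303 members held 7 or 8 of the genes. Those just inside were unlike this core: the 22 members with 4 genes had *Acta2* at 1591 CPM (UMIs of a gene, summed over the cells and scaled to a total of 1000000) and *Vtn*, a pericyte gene, at 4370 CPM, close to the 42 barcodes with 3 genes just outside (587 and 4053 CPM). In the 240 members with 7 or 8 genes *Acta2* was at 24690 CPM and *Vtn* at 113 CPM. On the endothelial side, the 70 members with 1 endothelial gene had *Acta2* at 18626 CPM and the 13 barcodes with 2 such genes and at least 4 smooth muscle genes that lay just outside had 17481 CPM. All 6 pericyte genes could be read in the members too, and 32 of them (18 cortex, 14 hippocampus) held 4 or more, while 1 hippocampus cell met the rules of both cell types. Of contractile genes outside the rule, *Myl9* was at 6706, *Tpm1* at 5161 and *Crip1* at 13935 CPM in those 240 members, against 759, 792 and 1133 CPM in the 22 members with 4 genes. Members near the lower limit thus held less of these genes too, and carried pericyte genes.

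All 8 smooth muscle genes of the rule were high in all 6 libraries. *Acta2*, the smooth muscle actin that forms the thin filaments (chr19:34241090-34255590, minus strand, GRCm38), stood at 24453, 23704 and 20897 CPM in the cortex and 22335, 20168 and 21321 CPM in the hippocampus libraries. The actin-binding protein transgelin, *Tagln* (chr9:45929619-45936058, minus strand), had means of 12655 ± 573 and 12369 ± 450 CPM (SD, n = 3), with overlapping libraries. *Myh11*, the smooth muscle myosin heavy chain (chr16:14194535-14291372, minus strand), stood at 3205, 3108 and 2750 CPM in the cortex and at 3652, 3725 and 3754 CPM in the hippocampus. The hippocampus libraries lay above those of the cortex for *Myh11*, by less than 2-fold. In pericytes the same genes, of which *Acta2*, *Tagln* and *Myh11* were used to choose them, were at 3.31 and 7.91 CPM for *Acta2* and 14.1 and 20.1 CPM for *Myh11*.

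The promoters of 3 genes of the contractile apparatus are shown because they hold a pair of letter matches to the CArG box, the element bound by serum response factor, which with its coactivator myocardin drives smooth muscle genes. Each is the 250 bases before the transcription start in the RefSeq annotation of GRCm38.p6, written 5′ to 3′ on the strand of the gene, and the capitals mark the matches, which are CC and GG around 6 bases of which at least 5 are A or T. That pattern reads the same on both strands. *Acta2* lies at chr19:34255374-34255623 on the minus strand, with matches that begin 84 and 34 bases before the start. *Myl9*, the regulatory myosin light chain, lies at chr2:156775214-156775463 on the plus strand, with matches that begin 161 and 99 bases before it. *Crip1*, a small LIM domain protein, lies at chr12:113151762-113152011 on the plus strand, with matches that begin 96 and 18 bases before it. In *Myl9* the match farther from the start has all 6 inner bases A or T.
Acta2: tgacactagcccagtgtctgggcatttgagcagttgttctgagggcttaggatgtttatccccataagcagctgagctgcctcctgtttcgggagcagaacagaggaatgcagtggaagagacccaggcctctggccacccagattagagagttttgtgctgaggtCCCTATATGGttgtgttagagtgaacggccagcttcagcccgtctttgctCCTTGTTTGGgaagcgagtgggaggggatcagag
Myl9: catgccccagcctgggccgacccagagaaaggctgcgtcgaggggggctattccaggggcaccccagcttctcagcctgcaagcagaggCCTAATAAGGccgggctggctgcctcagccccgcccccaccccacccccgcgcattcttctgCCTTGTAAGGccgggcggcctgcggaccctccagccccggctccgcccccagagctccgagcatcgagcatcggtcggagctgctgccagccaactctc
Crip1: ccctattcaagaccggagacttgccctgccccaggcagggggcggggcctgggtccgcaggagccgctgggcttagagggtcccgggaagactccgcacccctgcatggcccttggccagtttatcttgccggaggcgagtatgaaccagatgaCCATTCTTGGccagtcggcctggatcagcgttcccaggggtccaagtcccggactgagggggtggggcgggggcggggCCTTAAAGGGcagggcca

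Such matches occurred in 2823 of 32851 promoters of this length (8.59%), and in 11 of the 43 promoters (25.6%) that belonged to the 33 matched genes of a list of 39 genes of the contractile apparatus. With all 6 inner bases A or T they occurred in 1.47% of all promoters and in 7 of the 43 (16.3%). Besides *Myl9* and *Crip1*, the genes of the list with a match were *Cnn2*, *Filip1l*, *Itgb1*, *Ldb3*, *Myl6*, *Pdlim3*, *Synm* and *Vcl*. Of the smooth muscle genes of the rule 6 were matched and *Acta2* held the pattern, and none of the 4 pericyte genes that were matched did. A match is a run of letters and was not shown to be bound here.

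VSMCs were then set against the pericytes of the same library, the mural cells most like them. For each gene the CPM of the summed UMIs was compared within each library after 5 CPM were added to both sides, and a gene was called when it was at least 2-fold higher, or lower, in all 6 libraries. Of 5695 genes with a mean of at least 25 CPM, 290 (5.09%) were called higher in VSMCs and 587 (10.3%) lower, with the 18 genes of the rules left out. The median log2 ratio over all of them was -0.33. The CPM totals include mitochondrial UMIs, with median shares per library of 9.96 to 11.4% in VSMCs and 5.38 to 6.72% in pericytes. They also include the genes of the rules. With both left out of the totals, 351 genes were called higher and 546 lower. The pericytes carried endothelial RNA, as the 4 endothelial genes summed to 6747 and 4738 CPM in them and to 28.4 and 23.0 CPM in VSMCs, whose rule limits these genes. The comparison was therefore repeated with the 514 pericytes that had at most 1 endothelial gene (141 cortex, 373 hippocampus), and 217 genes stayed higher and 251 stayed lower with both definitions. The part of endothelial RNA in the remaining calls was not tested, nor was that of the lower depth of these 514 pericytes.

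**Figure D2:**
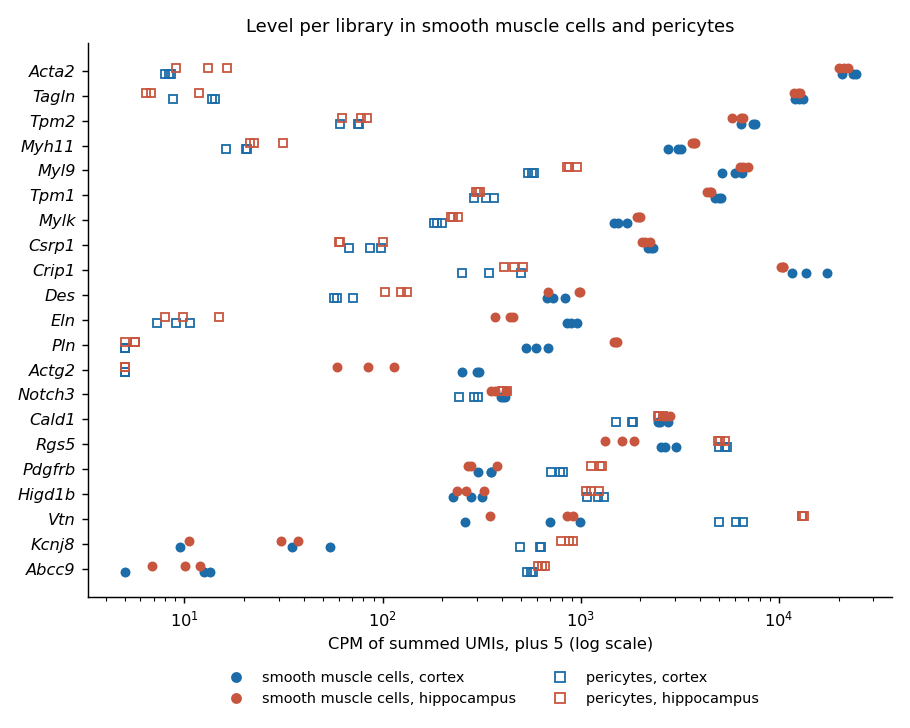
CPM of summed UMIs plus 5 (x, log scale) of the genes named on the y axis in VSMCs (filled) and pericytes (open), with 1 point per library and the preparations in blue (cortex) and red (hippocampus). *Acta2*, *Tagln*, *Tpm2*, *Myh11*, *Pln*, *Kcnj8*, *Vtn*, *Abcc9* and *Higd1b* belong to the rules, *Cald1* and *Notch3* lie close together in both cell types, and *Pln*, *Eln* and *Actg2* separate the preparations within VSMCs.

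The contractile apparatus was the list with most calls. Of its 39 genes, all of which reached the level limit, 29 (74.4%) were called higher and none lower (25 with both definitions of pericytes), against 5.09% and 10.3% of all genes tested, with a median log2 ratio of 2.25 against -0.33 over all genes. VSMCs were chosen for contractile genes and pericytes for few of them, so the choice itself favours genes expressed along with these. The list was also made with earlier results of these data known. Its share is therefore a description of the members. *Myl9* stood at 5860 ± 680 and 6620 ± 312 CPM in VSMCs of the cortex and hippocampus and at 559 ± 18.9 and 890 ± 56.2 CPM in pericytes, a log2 ratio of 3.13 ± 0.31 (SD over 6 libraries). *Mylk*, the kinase that phosphorylates it, had a log2 ratio of 3.08 ± 0.06, and *Tpm1*, a tropomyosin of the thin filament, one of 3.90 ± 0.08. Both had narrow spreads, so that VSMCs of every library exceeded their pericytes by nearly the same factor. The phosphatase side was higher as well, with *Ppp1r12b*, a myosin phosphatase subunit, at a log2 ratio of 4.10 ± 0.21 and *Ppp1r12a*, its paralog, at 2.25 ± 0.12.

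The 10 contractile genes without a call were *Cald1*, *Tpm4*, *Synm*, *Vcl*, *Csrp2*, *Cnn2*, *Itga1*, *Itgb1*, *Rock2* and *Rhoa*. Caldesmon, *Cald1*, which binds actin and tropomyosin, stood at 2576 ± 167 and 2698 ± 107 CPM in VSMCs and at 1716 ± 179 and 2502 ± 84.6 CPM in pericytes. The difference was thus under 2-fold in each preparation. The small GTPase *Rhoa* and its kinase *Rock2* had log2 ratios of -0.59 and 0.47, while the other kinase, *Rock1*, was called higher with 1.71. *Csrp2* and *Synm*, a LIM protein and an intermediate filament protein, were not called against all pericytes but were against those with at most 1 endothelial gene, with log2 ratios of 5.06 and 4.51. *Itga1* was called lower with that definition (-1.70).

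The genes furthest above pericytes were taken by the rule for naming, as the 12 largest mean ratios called with both definitions. They were *Fbxl22* (log2 ratio 6.66), *Palld* (6.30), *Sncg* (6.06), *Pdlim3* (6.04), *Eln* (5.99), *Ltbp1* (5.42), *Aoc3* (5.21), *Nexn* (5.17), *Gsn* (5.13), *Crispld2* (5.09), *Sh3bgr* (5.09) and *Actg2* (4.94). Palladin (*Palld*), the PDZ and LIM protein *Pdlim3*, nexilin (*Nexn*) and gelsolin (*Gsn*) bind or sever actin filaments. *Palld* stood at 569, 530 and 494 CPM in the cortex and 424, 463 and 483 CPM in the hippocampus VSMCs, and at most at 4.10 CPM in the pericytes of any library. *Gsn* had a wide spread (SD 1.11), as pericytes of hippocampus replicate 1 held 48.5 CPM against 3.58 to 9.38 CPM in the other 5 libraries. *Aoc3* encodes the vascular amine oxidase of smooth muscle, with 284 to 349 CPM in the cortex and 202 to 261 CPM in the hippocampus.

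*Actg2* encodes the enteric smooth muscle actin, and its coding sequence is nearly identical to that of *Acta2*, so its assignment of reads is uncertain in principle. It had no UMI in any of the 961 pericytes and was at least 594-fold higher in VSMCs, with pericytes set at 3 counts over both preparations. Its level did not follow that of *Acta2* between the preparations, as given below.

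Genes furthest below pericytes had a different make-up. The 12 named were *Emcn* (log2 ratio -6.30), *Adgrf5* (-6.04), *Cxcl12* (-5.72), *Palmd* (-5.47), *Foxq1* (-5.47), *Slc22a8* (-5.41), *Gatm* (-5.04), *Itih5* (-4.99), *Cthrc1* (-4.90), *Lef1* (-4.90), *Nostrin* (-4.87) and *St8sia4* (-4.72). Several of these, such as the sialomucin *Emcn*, the Wnt effector *Lef1* and the transcription factor *Foxq1*, are known from brain endothelium. Against the 514 pericytes with at most 1 endothelial gene the log2 ratios of *Lef1*, *Foxq1* and *Adgrf5* were -2.68, -3.21 and -3.37, nearer to 0 by over 2 units each, while that of *Emcn* was -5.37. *Cthrc1*, a secreted collagen-associated protein, was further from 0 with those pericytes (-5.59), as were *Itih5* (-5.24) and *Gatm* (-5.35), the first enzyme of creatine synthesis.

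**Figure D3:**
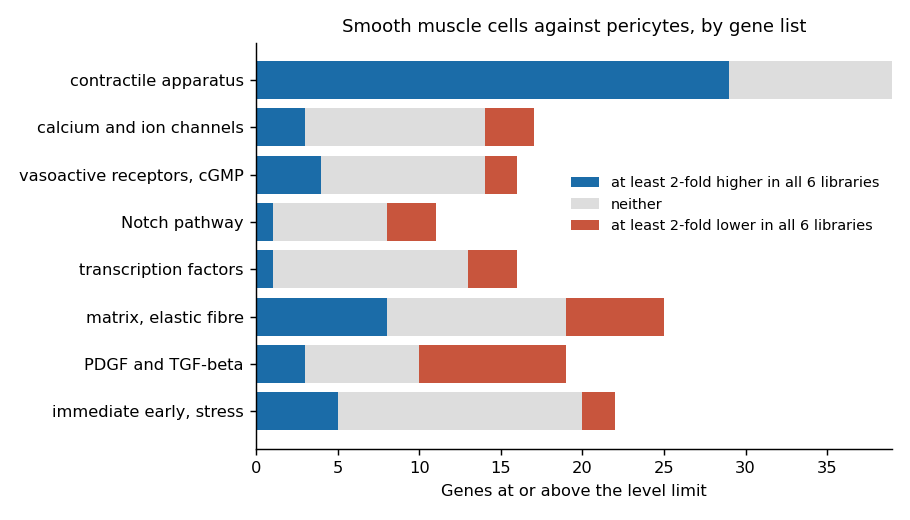
Number of genes (x) of 8 gene lists (y) that were called higher (blue), lower (red) or neither (grey) in VSMCs against all pericytes of the same library, among listed genes with a mean of at least 25 CPM. The contractile list has 29 higher and 0 lower, and the PDGF and TGF-beta list has 3 higher and 9 lower.

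Genes of calcium handling were called in either direction. Of 27 listed calcium and ion channel genes 17 reached the level limit, with 3 called higher and 3 lower (17.6% each, against 5.09% and 10.3% of all genes) and a median log2 ratio of 0.77. Higher were *Atp2a2*, the pump that returns calcium to the sarcoplasmic reticulum (663 ± 43.9 and 674 ± 48.2 CPM against 143 ± 13.6 and 152 ± 5.35 CPM in pericytes), *Atp2b4*, a plasma membrane calcium pump (log2 ratio 3.14 ± 0.32), and the potassium channel *Kcnk3* (2.62 ± 0.66, no call with the stricter pericytes). Those called lower included the calcium store protein *Casq2* (-1.49) and the polycystin channel *Pkd2* (-1.48), both with either definition of pericytes. The pore of the L-type calcium channel, *Cacna1c*, had 77.3 ± 17.0 and 65.2 ± 8.06 CPM against 36.1 ± 4.65 and 42.9 ± 2.21 CPM in pericytes and was not called. Of genes below the level limit, the ryanodine receptor *Ryr2* had 47.5 CPM in VSMCs of either preparation and no UMI in pericytes. *Pln*, the phospholamban that restrains the pump made from *Atp2a2*, belongs to the rule.

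Receptors and cGMP signalling genes were measured next. Of 33 listed genes 31 were matched and 16 tested, with 4 (25%) called higher, against 5.09% of all genes. Lower were 2 (12.5%), near the 10.3% of all genes, and the median log2 ratio was 0.04. The cGMP-inhibited phosphodiesterase *Pde3a* stood at 405 ± 23.5 and 452 ± 33.7 CPM against 41.2 ± 8.29 and 39.8 ± 2.17 CPM (log2 ratio 3.26 ± 0.17), and *Ramp1*, the partner that makes a receptor for the vasodilator CGRP, had a log2 ratio of 3.84 ± 0.32. The neuropeptide Y receptor *Npy1r* (2.16 ± 0.46) and the ATP-gated channel *P2rx1* (2.42 ± 0.81) were called higher with all pericytes, not with the stricter ones. The adenosine receptor *Adora2a* (-2.43) and *Calcrl* (-2.47), the receptor chain with which *Ramp1* pairs, were lower, *Calcrl* at 4.34 and 14.3 CPM in VSMCs and without a call against the stricter pericytes. The endothelin receptor *Ednra* (log2 ratio 0.08) and the guanylate cyclase chain *Gucy1a1* (0.41), through which nitric oxide acts, were near equality. *Rgs5*, a regulator of G protein signalling known as a mural marker, stood at 2730 ± 245 and 1594 ± 263 CPM against 5254 ± 237 and 5095 ± 209 CPM in pericytes, and was called lower with the stricter pericytes only (log2 ratio -1.94).

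The Notch pathway, by which arterial endothelium instructs mural cells, showed like levels of its mural receptor in both cell types. *Notch3* stood at 400 ± 8.59 and 376 ± 36.6 CPM in VSMCs and at 272 ± 31.8 and 405 ± 12.8 CPM in pericytes. Of 15 genes 11 were tested, with 1 called higher and 3 lower (9.09% and 27.3%, against 5.09% and 10.3% of all genes). The median log2 ratio was 0.22, against -0.33 over all genes. The ligand *Jag1* was higher against all pericytes only (380 ± 39.2 and 230 ± 33.6 CPM against 104 ± 11.8 and 101 ± 12 CPM), and *Notch1*, *Jag2* and *Hey1* were lower, of which *Notch1* kept its call with both definitions (log2 ratio -1.90). The target genes *Heyl* and *Hey2* were not called, with log2 ratios of 0.29 and 1.00.

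Of the transcription factors listed, myocardin was the one called higher. *Myocd* had 79.9 ± 9.76 and 52.5 ± 12.9 CPM in VSMCs and 0.238 and 0.410 CPM in pericytes, a log2 ratio of 3.70 ± 0.41, and its DNA-binding partner *Srf* had a log2 ratio of 0.97 and no call. Of 24 listed factors 16 were tested, with 1 (6.25%) higher, near the 5.09% of all genes, and 3 (18.8%) lower, against 10.3%. Their median log2 ratio was 0.24. *Foxf2*, a forkhead factor needed in brain pericytes, was lower with both definitions (14.9 and 15.3 CPM against 161 and 162 CPM), whereas *Klf4* and *Mkl2* were lower only against all pericytes, with log2 ratios of -1.67 and 2.20 for *Klf4* and of -1.94 and -0.12 for *Mkl2* with all and stricter pericytes. *Tbx18*, *Foxs1*, *Nr2f2* and *Ebf1*, factors shared by mural cells, had log2 ratios from 0.25 to 0.55.

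The matrix list had calls in both directions, with elastic fibre genes among the higher and laminin chains on both sides. Of 34 genes 25 were tested, with 8 (32%) called higher, each with both definitions, and 6 (24%) lower. Over all genes these shares were 5.09% and 10.3%, and the median log2 ratio was 0.68 for the list and -0.33 for all genes. Higher were elastin (*Eln*, chr5:134702593-134747323, minus strand), *Lox*, which crosslinks it (105 ± 9.25 and 54.9 ± 11 CPM against 1.88 and 1.72 CPM), *Ltbp1*, which stores latent TGF-beta, *Crispld2*, *Timp3*, *Sparcl1*, the collagen *Col18a1* and the laminin chain *Lama5*. Lower were the laminin chains *Lama4*, *Lamb1* and *Lamc1* and nidogen-1 (*Nid1*) with both definitions, and *Fn1* and *Ltbp4* against all pericytes only. Thus *Lama5* had a log2 ratio of 2.39 ± 0.23 and *Lama4* one of -1.54 ± 0.31. The network collagen chains *Col4a1* and *Col4a2* were not called (-0.51 and -0.25).

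Several genes of PDGF and TGF-beta signalling were lower, though not all with the stricter pericytes. Of 22 genes 19 were tested, with 3 (15.8%) higher and 9 (47.4%) lower, of which 2 and 4 kept the call with both definitions. More genes were lower than higher over all genes as well (10.3% and 5.09%), and the median log2 ratios were -1.10 for the list and -0.33 for all genes. Higher were *Pdgfa* (333 ± 4.27 and 353 ± 14.2 CPM against 41.4 ± 9.19 and 54.5 ± 8.92 CPM), *Tgfb3* (333 ± 72.6 and 225 ± 20.8 CPM against 4.94 and 4.07 CPM) and the adhesion molecule *Mcam*. *Pdgfrb*, the receptor on which pericyte recruitment depends, was lower (331 ± 27.2 and 303 ± 58.9 CPM against 765 ± 56.1 and 1214 ± 84.1 CPM, log2 ratio -1.60), as were *Tgfb1*, *Eng* and the aminopeptidase *Anpep* with both definitions. Against all pericytes only, *Bmpr2*, *Tgfbr2*, *Acvrl1*, *Id1* and *Pdgfb* were lower. *Cspg4*, the NG2 proteoglycan, had 317 and 371 CPM in VSMCs against 249 and 394 CPM in pericytes and was not called.

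Immediate early genes, which respond within minutes and also to tissue digestion, were measured as a further list. Of 25 genes 22 were tested, with 5 higher (*Ctgf*, *Fos*, *Cyr61*, *Fosb* and *Socs3*) and 2 lower (*Klf2* and *Nfkbia*), of which *Ctgf*, *Fos* and *Fosb* kept the call with both definitions of pericytes. These were 22.7% and 9.09% of the list, against 5.09% and 10.3% of all genes, so the share lower was near that of all genes. The median log2 ratio was 0.46 for the list and -0.33 for all genes. *Fos* stood at 691 ± 153 and 725 ± 47.9 CPM in VSMCs against 41.6 ± 22 and 140 ± 6.78 CPM in pericytes, and *Ctgf*, a matricellular target of stretch signalling, at 978 ± 218 and 503 ± 80.3 CPM against 90.7 ± 23.3 and 54.7 ± 9.36 CPM. *Klf2*, a flow-responsive factor, turned from a log2 ratio of -2.0 against all pericytes to one of 2.59 against those with at most 1 endothelial gene. Digestion was the same for all cells of a preparation, and its part in these levels was not tested.

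Within VSMCs the preparations were then compared. A gene was called when the summed CPM differed at least 2-fold, after 5 CPM were added, and the 3 libraries of one preparation all lay above the 3 of the other. Of 4913 genes with a mean of at least 25 CPM in VSMCs, 45 (0.916%) were called higher in the hippocampus and 52 (1.06%) higher in the cortex, and the median log2 ratio of hippocampus over cortex was 0.05. The first count depended on the settings, with 99 without hippocampus replicate 1, 177 when 3 smooth muscle genes sufficed for membership, 193 with no level limit and 6 with a limit of 100 CPM. The second was 143 with no level limit and 19 with a limit of 100 CPM. The matrices of the preparations were made with different gene annotations, and for many calls the same shift appeared in cells of other types. Of the 45 genes 16 were also at least 2-fold higher in the microglia of the hippocampus and 18 in its pericytes (19 in either), and of the 52 genes 11 were also lower in microglia and 15 in pericytes (19 in either). That left 26 and 33 genes with neither, of which 15 and 13 were under 25 CPM in both pericytes and microglia. For genes at such levels a shared shift could be missed, so its absence does not set them apart. Examples of the shared shifts were *Tonsl* (log2 ratio 4.76 in VSMCs, 4.59 in pericytes and 4.28 in microglia), *Srp54c* (4.31, 4.28 and 3.89), *Rpl13a* (2.59, 2.40 and 2.52), *Sept2* (3.06, 3.55 and 3.07), *Pgk1* (-3.27, -2.69 and -2.62) and *Aaed1* (-2.38, -2.07 and -2.34). The part of the annotations in these was not tested.

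**Figure D4:**
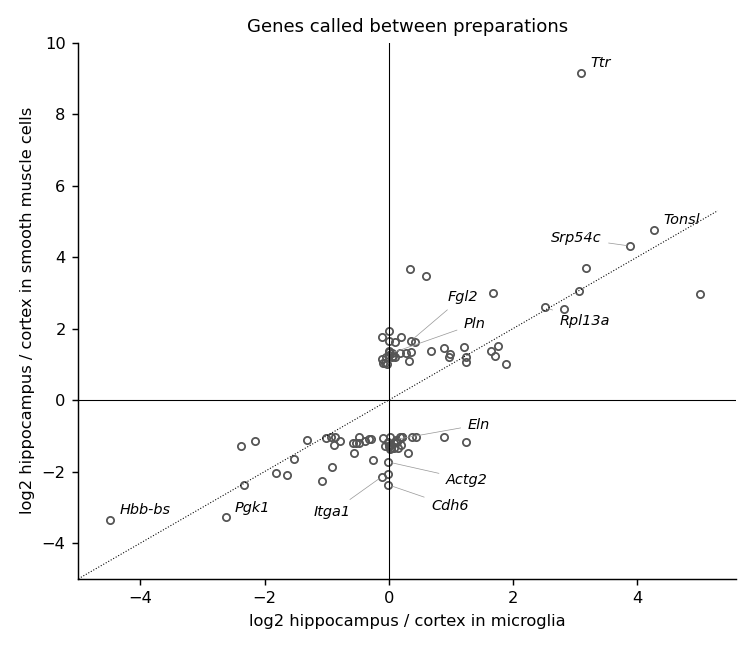
Log2 ratio of hippocampus over cortex in VSMCs (y) against the same in microglia (x) for the 45 and 52 genes called between preparations, with 1 point per gene and the dotted line at equality. Genes near the line, such as *Tonsl*, *Srp54c* and *Rpl13a*, shifted alike in both cell types, while *Pln*, *Eln*, *Actg2*, *Itga1* and *Cdh6* lie near 0 on the x axis because microglia held under 1 CPM of each, so that a shift there could not be seen.

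Of the 8 smooth muscle genes of the rule *Pln* differed most between the preparations (chr10:53337667-53345987, plus strand). Phospholamban holds back the calcium pump of the sarcoplasmic reticulum until it is phosphorylated. It stood at 677, 590 and 524 CPM in the cortex libraries and at 1506, 1466 and 1514 CPM in the hippocampus libraries. All hippocampus libraries thus lay above all cortex libraries. The pooled fold was 2.51 (exact Poisson 95% interval 2.33 to 2.69, for counting error only), on 1212 UMIs from 154 cells and 2027 UMIs from 95 cells, with no cell above 2.96% of its preparation's UMIs. In pericytes *Pln* had at most 0.626 CPM. Thinned to 2000 UMIs per cell, 58.3% of cortex and 77.1% of hippocampus VSMCs held a *Pln* UMI (81.9% and 82.6% unthinned), against 0.0748% and 0.122% of thinned microglia, and 3 and 13 shallower VSMCs were left out. *Pln* is a gene of the rule, so members were also chosen without it. This gave 301 cells and levels of 597 ± 76.9 and 1504 ± 37.6 CPM, nearly those of the full rule. The pump gene *Atp2a2* did not shift with it (663 and 674 CPM).

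Genes that were higher in the cortex of the younger mice included elastin and several genes of the actin scaffold. Of the matrix list 24 genes were tested, with *Eln*, *Col8a1* and *Igfbp2* called higher in the cortex (12.5%, against 1.06% of all genes), *Igfbp5* higher in the hippocampus (4.17%, against 0.916%), and a median log2 ratio of -0.31. *Eln* stood at 956, 886 and 852 CPM in the cortex and at 434, 450 and 363 CPM in the hippocampus, a fold of 2.14 for cortex over hippocampus (1.94 to 2.35), without overlap. Thinned to 2000 UMIs, 69.2% and 38.6% of VSMCs held an *Eln* UMI. The 8 fibroblast genes shifted the same way, from 797 ± 238 CPM in the cortex to 351 ± 146 CPM in the hippocampus, and 5 cortex and 0 hippocampus members held 4 or more of them. Without 69 members (40 cortex, 29 hippocampus) that held genes of another cell type or were marked as doublets, *Eln* stood at 959 ± 12.7 and 432 ± 58.1 CPM and the fibroblast genes at 622 ± 75.3 and 332 ± 81.0 CPM. *Actg2* (chr6:83512905-83536265, minus strand) stood at 301, 294 and 246 CPM in the cortex and at 110, 53.9 and 79.3 CPM in the hippocampus, a fold of 3.55 (2.88 to 4.41), and was found in 30.1% and 8.10% of thinned VSMCs. In the hippocampus 1 cell held 19.6% of its 107 UMIs. For *Acta2*, by contrast, the libraries of the preparations overlapped and the log2 ratio was -0.11. The tropomyosin *Tpm4* stood at 236, 243 and 239 CPM against 133, 126 and 84.4 CPM. The contractile list as a whole had 4 genes called lower in the hippocampus (10.3%, against 1.06% of all genes), among them *Actg2*, *Itga1* and *Tpm4*, none higher among its 39, and a median log2 ratio of -0.13.

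*Itga1*, a collagen and laminin receptor chain (chr13:114953096-115101964, minus strand), stood at 632, 607 and 581 CPM in the cortex and at 126, 110 and 166 CPM in the hippocampus, a fold of 4.62 for cortex over hippocampus (3.95 to 5.44). The gene *Pelo* lies inside it on the same strand (chr13:115088355-115090186) and shifted the other way, from 1.51, 1.50 and 5.68 CPM to 69.9, 44.6 and 58.8 CPM. The same pair moved in pericytes, by -1.52 for *Itga1* and 4.15 for *Pelo* on the log2 scale. The sum of both genes was 634, 608 and 587 CPM in cortex and 196, 154 and 225 CPM in hippocampus VSMCs, so the libraries remained apart with the sum. In pericytes the sum was 971, 1013 and 948 CPM in the cortex and 491, 454 and 442 CPM in the hippocampus. Reads counted for neither gene are not in the sum, and how the annotations divide reads between the pair was not tested. Protein-coding genes on the same strand also overlapped *Aaed1*, *Aars*, *Cpxm2*, *Mia*, *Mkks*, *Phpt1*, *Rnaset2a*, *Rpl13a* and *Tonsl*, and *Sept2* shares its place with another protein-coding locus of the same name (chr1:93478993-93509733, plus strand), so the levels of these genes are uncertain for the same reason.

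Other genes higher in the cortex without a 2-fold shift in the same direction in pericytes or microglia included the short-chain collagen *Col8a1* (233, 150 and 249 CPM against 119, 70.6 and 48.6 CPM), the binding protein *Igfbp2* (256, 206 and 426 against 138, 48.3 and 125 CPM, with 24.2% and 22.4% of the UMIs of a preparation from 1 cell), *P2rx1* (197, 198 and 183 against 112, 100 and 51.1 CPM) and the growth factor *Bmp2* (69.2, 72.1 and 88.1 against 46.6, 29.7 and 28.1 CPM), which was not called without the 69 members (log2 ratio -0.84). *Cdh6*, a cadherin, stood at 75.3, 52.6 and 58.2 CPM against 6.99, 9.29 and 7.67 CPM, and it was also lower in hippocampus pericytes, by a log2 ratio of -1.04. Of the immediate early and stress list 5 of 23 tested genes (21.7%, against 1.06% of all genes) were lower in the hippocampus and none higher. *Hspa1a*, an inducible heat shock protein, stood at 456, 423 and 371 CPM against 133, 143 and 159 CPM, and *Hspa1b*, whose transcript is nearly identical, at 230, 183 and 172 CPM against 44.3, 31.6 and 33.2 CPM, so reads may be divided between them. *Nr4a1*, *Gadd45b* and *Atf3* were the other 3. The median log2 ratio of this list was -0.60, and preparation, age and region cannot be told apart for it.

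In the other direction, the genes higher in hippocampus VSMCs and not 2-fold higher in pericytes or microglia were, apart from *Pln*, at most at 345 CPM there. *Fgl2*, a fibrinogen-like secreted protein, stood at 15.1, 37.5 and 48.3 CPM in the cortex and at 76.9, 138 and 138 CPM in the hippocampus, a fold of 3.5 (2.62 to 4.70). *Chchd10*, a mitochondrial protein, stood at 102, 165 and 138 against 247, 506 and 284 CPM, and *Asb2*, which targets filamins for degradation, at 99.3, 82.6 and 93.7 against 207, 169 and 205 CPM. Without the 69 members *Chchd10* was not called, with a log2 ratio of 0.71 and overlapping libraries. *Scn4b*, a sodium channel beta subunit, had no UMI in pericytes and 12.8 to 21.1 CPM in cortex and 44.3 to 53.9 CPM in hippocampus VSMCs. *Slc16a11* had a log2 ratio of 1.20 and was found in 51 hippocampus cells. *Igfbp5* and *Timp4*, with log2 ratios of 1.34 and 1.75, rested on fewer, with 17 and 13 hippocampus cells, of which 1 held 24.2% and 31.0% of the UMIs. With all members none of these groups of libraries overlapped, as the call requires.

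Some of the large ratios between preparations rested on few cells. *Ttr*, the transthyretin of choroid plexus epithelium, had no UMI in cortex VSMCs and 8120, 383 and 89.5 CPM in the hippocampus libraries, at least 1860-fold higher with the cortex at 3 counts over the preparation, but 1 cell held 86.8% of its 3725 UMIs. *Enpp2* had 75.8% of its UMIs from 1 cell. The reads of *1110017D15Rik* and *Mia* came from 6 and 5 cells, and their log2 ratios of 3.67 and 3.48 became 0.24 and 0.62 without the 69 members. For *Ttr* and *Enpp2* the log2 ratios were 9.16 and 3.71 with all members and 9.37 and 4.56 without the 69. Choroid plexus genes were not among those by which members were left out. Of the choroid plexus list the 5 genes summed to 0, 1.50 and 14.2 CPM in the cortex and to 8458, 455 and 113 CPM in the hippocampus VSMCs, with *Ttr* the most abundant.

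RNA of other cell types was measured beside the smooth muscle genes, which summed to 48544 ± 3475 and 47497 ± 1920 CPM. The 6 pericyte genes, led by *Vtn*, summed to 1416 ± 457 and 1359 ± 330 CPM, against 9542 and 18002 CPM in pericytes. The choroid plexus genes given above reached 8458 CPM in hippocampus replicate 1. The 8 microglial genes summed to 415, 386 and 756 CPM in the cortex and 963, 775 and 228 CPM in the hippocampus VSMCs, and to 28257 and 27978 CPM in microglia. The 6 astrocyte genes, led by *Slc1a2*, summed to 285, 838 and 712 CPM and to 62.9, 314 and 795 CPM. The 8 fibroblast genes, led by *Col1a2*, summed to 797 ± 238 and 351 ± 146 CPM, with *Dpt* at 0. Of the neuronal markers *Syt1*, *Rbfox3* and *Gad1* had no UMI in any member, nor did the cycling marker *Mki67*. The 5 erythroid genes summed to 133 ± 11.6 CPM in the cortex and 9.93 ± 9.38 CPM in the hippocampus, led by the globin *Hbb-bs* at 96.1 and 4.97 CPM, with *Alas2* at 0. *Hbb-bs* was called higher in the cortex (log2 ratio -3.34), with ratios of -3.77 in pericytes and -4.48 in microglia. The 5 oligodendrocyte genes summed to 14.6 ± 8.33 and 98.0 ± 36.4 CPM. The 5 macrophage genes, led by *Pf4*, summed to 200 CPM in cortex replicate 1 and to at most 2.84 CPM in the other 5 libraries. By cells, 14 members held 4 or more microglial genes, 22 held 3 or more astrocyte genes, 5 held 4 or more fibroblast genes and 2 held 3 or more oligodendrocyte genes.

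VSMCs differed among themselves along the level of *Acta2*. The median member had 24137 CPM in the cortex (0 to 46383) and 21273 CPM in the hippocampus (0 to 44204). Members were divided within each library into terciles by *Acta2*, which is a range and not a cell type, since 72 of the 303 lay within 5% of a limit between terciles. The split uses a gene of the rule and the shares of all genes in a cell depend on each other, so the ratios below are a description. Over the cells of the lowest tercile the median level of *Rgs5* was 4434 CPM in the cortex and 3906 CPM in the hippocampus, against 572 and 245 CPM in the highest tercile. The low end of the range was thus the end with *Rgs5*.

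The lowest tercile also held more pericyte and microglial RNA than the highest, and the ratios were computed again with such members left out. The tercile contained 9 of the 10 members marked as doublets, its level of *Cx3cr1*, the fractalkine receptor of microglia, was 217 and 299 CPM against 2.75 and 6.88 CPM in the highest tercile, and its members had 3 of the 6 pericyte genes at the median against 2 and 1. The astrocyte gene *Slc1a2* was at 820 ± 515 CPM in the lowest and 54.2 ± 35.3 CPM in the highest tercile of the cortex, and at 218 ± 305 and 138 ± 101 CPM in those of the hippocampus, where the difference was smaller than the SD of the lowest tercile. The median depth of the lowest tercile was 8905.5 and 6824 UMIs against 10494 and 12416 UMIs. Each ratio is given for all members and again without the 69 members with genes of another cell type or a doublet mark, which left 148 cortex and 86 hippocampus cells. Members with 4 or more of the 6 pericyte genes were among those left out. The filter therefore acts on *Vtn* and *Ndufa4l2* themselves, and a change in their ratios with it is a description only.

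**Figure D5:**
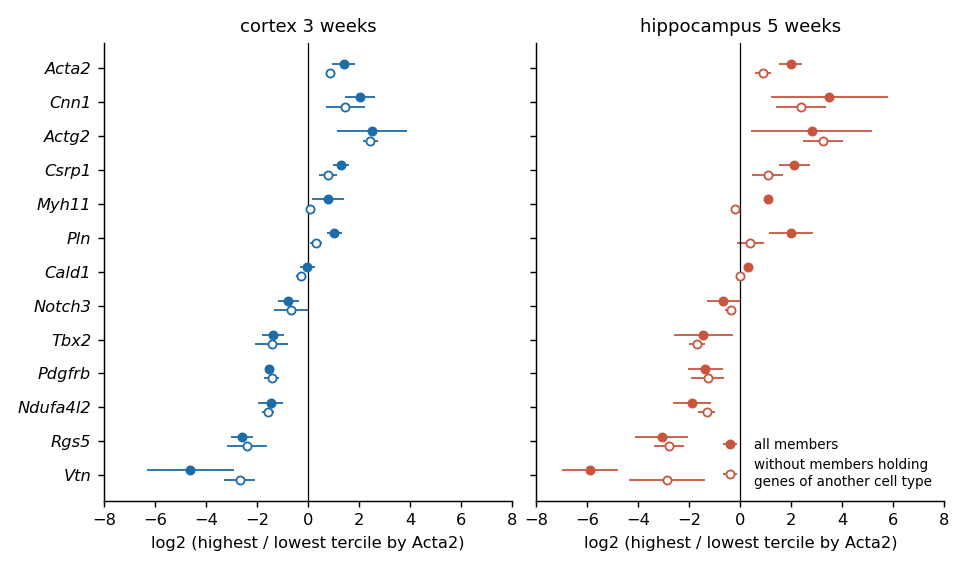
Log2 ratio of the highest over the lowest *Acta2* tercile (x) for the genes named on the y axis in each preparation, as the mean over 3 libraries with SD as bars, for all members (filled) and without members that held genes of another cell type (open). *Rgs5*, *Vtn*, *Pdgfrb*, *Ndufa4l2* and *Tbx2* lie left of 0 and *Cnn1*, *Actg2* and *Csrp1* right of 0 with both sets of cells, and *Myh11* and *Cald1* cross 0 in the hippocampus.

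Contractile genes did not all follow *Acta2*. Calponin, *Cnn1*, had a log2 ratio of the highest over the lowest tercile of 2.04 ± 0.58 in the cortex and 3.5 ± 2.29 in the hippocampus, and of 1.46 and 2.38 without the 69 members. *Actg2* had 2.50 ± 1.38 and, on 12 UMIs in the lowest tercile, 2.80 ± 2.37, and it had 2.43 and 3.24 without them. The LIM protein *Csrp1* had 1.30 and 2.12, and 0.80 and 1.07 without them. For *Myh11* the ratios of 0.78 and 1.08 became 0.10 and -0.20, a change of sign in the hippocampus, and for *Pln* 1.03 and 1.99 became 0.30 and 0.39. *Cald1*, with -0.02 and 0.29, had -0.28 and -0.02 without them. *Actg2* and *Csrp1*, which lie outside the rule, thus had ratios above 0 in either set of cells. That of *Actg2* in the hippocampus was near its SD with all members. *Cnn1* also stayed above 0, whereas the ratios of *Myh11* and *Pln* were much smaller without the members left out. These 3 genes belong to the rule, and the lowest tercile held 7 and 5 of its 8 genes at the median, against 8 in the highest. Their ratios therefore depend on how members were chosen and are a description only.

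Several genes that pericytes also express had ratios below 0. *Rgs5* had log2 ratios of -2.60 ± 0.43 and -3.08 ± 1.05, and of -2.38 and -2.77 without the 69 members. Its level in the cortex was 5733 ± 198 CPM in the lowest and 969 ± 263 CPM in the highest tercile. *Pdgfrb* had -1.54 and -1.36, and -1.43 and -1.28 without them. *Ndufa4l2*, a hypoxia-responsive mitochondrial protein, had -1.47 and -1.88, and -1.56 and -1.31 without them. The transcription factor *Tbx2* had -1.38 and -1.44, and -1.43 and -1.70 without them, and *Notch3* had -0.78 ± 0.41 and -0.66 ± 0.64, and -0.65 ± 0.67 and -0.38 ± 0.22, near the spread between replicates. The pericyte gene *Vtn* had -4.62 and -5.89, which became -2.68 and -2.87. The ratios of these 6 genes kept their sign in both preparations and both sets of cells, unlike that of *Cald1*, which is also shared.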

How the data were processed

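Single-cell RNA sequencing data of prep 1 (cortex, 3 weeks) and prep 3 (hippocampus, 5 weeks) were used, with 3 technical replicates each, and prep 2 was not analysed here. The authors deposited raw UMI counts per gene and barcode, with barcodes called as cells and no normalization. The labels name Cell Ranger 5.0.1 and mm10, and the file headers give 3.0.1 (prep 1) and 3.1.0 (prep 3). Gene lists held 31053 and 27998 identifiers, of which 27514 were shared and used in the comparisons. Genes listed for 1 preparation only were set against pericytes of that preparation apart from these, as given under other observations.

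Libraries were treated one by one, without integration or clustering. UMIs were summed over the cells of a type in a library and expressed as CPM. Mean ratios over libraries, exact Clopper-Pearson and Poisson intervals, and calls as described with each comparison were computed with Python 3.11.15, numpy 2.4.6, scipy 1.17.1 and pandas 2.3.3. Microglia were barcodes with at least 4 of 8 microglial genes and at most 1 gene from each of the endothelial, smooth muscle and pericyte genes of the rules. Barcodes with the highest Scrublet scores (scanpy 1.11.5) were marked as doublets per library, in a number set in advance, and kept. The calculation was tested on simulated data with known fold changes. Named were the genes of the rules, the 12 largest called ratios per direction against pericytes that held with both definitions, the 10 largest per direction between preparations, and in each list the called genes and the 4 with the highest level. Further genes called between the preparations, the *Itga1* and *Pelo* pair, and the promoters of *Myl9* and *Crip1* were chosen after their values were seen. Some genes that this naming rule selects are not reported here. The members and gene lists were chosen with earlier results of these data known. Alternatives covered the limits of the rule, mitochondrial limit, shared barcodes, doublets, each replicate, the definition of pericytes, scaling, weighting of cells, level limits, the CPM added and thinning. Positions are from GENCODE M21 (GRCm38), and promoters from RefSeq.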

Additional observations from a re-analysis of the deposited data

Results flagged for a closer look

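For 8 genes called between the preparations, every hippocampus library lay on one side of every cortex library in VSMCs and on the opposite side in pericytes. These opposite shifts were not tested, and region, age and preparation cannot be told apart. On the log2 scale of hippocampus over cortex, VSMCs had -2.27 for *Hspa1b*, -1.49 for *Hspa1a*, -1.35 for *Col8a1*, -1.21 for *Nr4a1* and -1.04 for *Slc11a1*, and 1.14 for *Id1*, 1.05 for *Dmp1* and 1.77 for *Slc2a1*. In pericytes the same ratios were 0.82, 1.61, 1.52, 0.68 and 0.90 for the first 5, and -0.87 for *Id1* and -0.68 for *Slc2a1*. *Dmp1* had 8 UMIs in all pericytes (1.43 CPM in the cortex and 0.41 CPM in the hippocampus), too few to compare. Without the 69 VSMCs that held genes of another cell type or were marked as doublets, *Slc11a1* and *Slc2a1* were not called, with log2 ratios of -0.95 and 0.55 in VSMCs.

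*Hspa1a* stood at 417 ± 43.1 CPM in cortex and 145 ± 12.9 CPM in hippocampus VSMCs, and at 90.9 ± 1.19 and 289 ± 61.2 CPM in pericytes, or 182 and 354 CPM in pericytes with at most 1 endothelial gene. *Hspa1b* stood at 195 ± 31.0 and 36.4 ± 6.90 CPM in VSMCs and at 61.9 ± 11.5 and 113 ± 22.2 CPM in pericytes. In microglia both were lower in the hippocampus (log2 ratios of -0.55 and -1.07), as in VSMCs.

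*Id1* and *Slc2a1*, a target of BMP signalling and the glucose transporter of the barrier endothelium, were 53.0 and 123 CPM and 10.9 and 48.9 CPM in VSMCs. Their pericyte levels of 1133 and 619 CPM and of 1201 and 749 CPM became 114 ± 45.0 and 77.0 ± 30.4 CPM and 35.6 and 38.5 CPM with pericytes of at most 1 endothelial gene, so for *Slc2a1* the opposite direction was lost with that definition. In those pericytes *Hspa1b* stood at 97.4 ± 48.6 and 137 ± 25.5 CPM and *Nr4a1* at 52.8 ± 10.3 and 67.2 ± 17.2 CPM. For *Id1*, *Hspa1b* and *Nr4a1* the difference between preparations there was smaller than the larger SD. *Col8a1* stood at 211 ± 53.0 and 79.4 ± 35.9 CPM in VSMCs and at 7.05 ± 5.65 and 29.5 ± 7.04 CPM in pericytes. *Nr4a1*, *Slc11a1* and *Dmp1* stood at 109, 49.0 and 27.3 CPM in cortex and 44.4, 21.3 and 61.8 CPM in hippocampus VSMCs.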

How the results depend on the processing

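No paired analysis was possible because the replicate numbers mark technical replicates of 2 separate suspensions and no test was made. The share of VSMCs in the cortex and hippocampus was 1.52% and 1.01% with at least 3 smooth muscle genes, 1.35% and 0.718% with at least 5 and 1.07% and 0.633% with no endothelial gene allowed, and it was 0.733% in the hippocampus with a mitochondrial limit of 15%. The cortex stayed above the hippocampus in all of these. Leaving out 1 technical replicate gave 1.39 to 1.44% and 0.778 to 0.830%. It gave 292 to 306 genes higher and 597 to 626 lower than in pericytes, and between preparations 49 to 99 higher in the hippocampus, with 99 without hippocampus replicate 1, and 53 to 62 lower. With at least 100 CPM there were 142 genes higher and 182 lower than in pericytes, and 6 higher and 19 lower in the hippocampus. With no level filter the latter counts were 193 and 143, and with 20 CPM added 27 and 26. The number higher in the hippocampus was 177 with at least 3 smooth muscle genes, 77 with cells weighted equally and 29 without genes that shifted 2-fold alike in microglia, a choice made after seeing the data, as were the omission of *Pln* from the rule and of 69 members with other cell types' genes. Of 828 values of 73 named genes under these settings 738 moved by less than the spread between replicates. A further 88 moved by more, 35 of them with 20 CPM added, and 2 changed sign. Those 2 were the tercile ratios of *Myh11* (-0.20) and *Cald1* (-0.019) in the hippocampus without the 69 members. The values compared did not cover every ratio given above, as *Klf2* and *Klf4* changed sign with the stricter pericytes. With 115 hippocampus VSMCs and 1358162 UMIs, 3 counts equal 2.21 CPM, so genes near this level could not be compared.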

Other observations

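Genes listed in the annotation of 1 preparation only entered no comparison between the preparations. Among 3539 genes listed for the cortex alone, 11 reached the level limit and 1 was at least 2-fold higher in VSMCs than in pericytes in all 3 libraries. It was *Trac*, the constant region of the T cell receptor alpha chain, with 50.7 ± 5.65 CPM in VSMCs, 3.31 CPM in pericytes and 0.302 CPM in microglia (log2 ratio 2.75). Among 484 genes listed for the hippocampus alone, 5 reached the limit, and *0610009L18Rik* had 76.9 ± 10.7 CPM in VSMCs against 10.9 CPM in pericytes and 11.8 CPM in microglia (log2 ratio 2.37).

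Matrix Gla protein, *Mgp*, an inhibitor of vascular calcification, had means of 1868 ± 425 CPM in cortex and 2186 ± 2127 CPM in hippocampus VSMCs. The SD in the hippocampus was nearly as large as the mean, while in pericytes the libraries were at 1607 ± 156 and 1278 ± 79.1 CPM.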
